A study of Mus musculus with 24 samples.

Results

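The MITF/TFE3 DKO was compared with the TFE3 KO in B16-F10 mouse melanoma cells, which asks how the messenger RNA of a melanoma cell differs when MITF is lost from cells that already lack TFE3. All 12010 genes in the deposited table were taken, in the 6 libraries of these lines (3 of each) out of 24 libraries from 8 lines. B16-F10 is a line from a C57BL/6 mouse melanoma, and both lines carry the luc2 luciferase reporter. The TFE3 KO keeps MITF and TFEB. The MITF/TFE3 DKO keeps TFEB as the member of the family that was not targeted. Each Tfe3 or Tfeb knockout line was grown from an isolated clone. The study made its Tfe3 and Tfeb knockouts in parental cells and in the MITF KO, so the MITF/TFE3 DKO descends from the MITF KO and the TFE3 KO from the parental cells. The study reports that the MITF KO may keep a little of a truncated MITF protein. Loss of MITF and other differences between these clones therefore cannot be told apart. No label or method says that the 3 libraries of a line came from separate cultures, so p-values measure the spread between these libraries only.

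MITF, TFE3 and TFEB are basic helix-loop-helix leucine zipper factors that bind E-box and related DNA motifs as dimers. MITF drives the melanocyte lineage, including genes of pigment synthesis and of cell division. TFEB and TFE3 are held in the cytoplasm by mTORC1 when nutrients are plentiful, and switch on genes of lysosomes and autophagy when they reach the nucleus. The comparison with MITF loss in cells that still have TFE3 (the MITF KO against the parental cells) uses the same measure in other libraries.

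The 6 libraries held 20574829 to 23814972 reads on genes, within the 18300902 to 26667877 reads of the whole series, and 3 reads were worth 0.125 to 0.150 CPM. CPM are read counts relative to library size, scaled by the authors with the TMM method of edgeR. The libraries read the 3′ ends of transcripts, so that a level does not grow with transcript length. A call needed at least a 2-fold difference and an adjusted p under 0.05 (limma on log2(CPM + 1), Benjamini-Hochberg over 12010 genes), and changes are given on that log2 scale, where low genes appear to change less than they do. The 7 melanocyte lineage markers summed to 29156 to 31798 CPM in the MITF/TFE3 DKO and 28993 to 31181 CPM in the TFE3 KO, and none of them was called. Of the markers of other cell types, the Schwann cell list stood apart, mostly through Mbp. Its 4 markers summed to 909 to 1019.6 CPM for the MITF/TFE3 DKO and 28.5 to 39.3 CPM for the TFE3 KO, with Mbp and Pmp22 called higher. Mbp alone had 848 to 965 CPM in the MITF/TFE3 DKO. The rest were low. The 4 of 11 leukocyte markers in the table summed to 2.19 to 7.31 CPM, the 2 of 6 endothelial markers to 1.33 to 4.39 CPM, the 2 of 9 epithelial markers to 0.952 to 2.08 CPM and the 3 of 8 fibroblast markers to 18.6 to 25.8 CPM over both lines.

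The targeted genes were read first. Tfe3 had 8.01, 9.75 and 8.14 CPM across the MITF/TFE3 DKO libraries and 11.6, 8.44 and 12.2 CPM across those of the TFE3 KO, against 35.4, 38.4 and 37.4 CPM in the parental cells. The libraries of both Tfe3 knockout lines overlapped (-0.28 ± 0.16 log2, SE, adjusted p = 0.16, for the MITF/TFE3 DKO against the TFE3 KO). All 6 lay below the parental libraries. Mitf had 1101, 1208 and 1268 CPM across the MITF/TFE3 DKO libraries and 719, 648 and 693 CPM across those of the TFE3 KO, so the transcript was higher in the line without MITF, by 0.79 (adjusted p = 4.3e-07), under the fold needed for a call. The MITF KO carries a frameshift, which 3′ reads do not show, so this level is no check of the knockout. Tfeb, the member left in the MITF/TFE3 DKO, had 10.7, 13.6 and 9.55 CPM there and 12.3, 10.9 and 8.21 CPM in the TFE3 KO, with overlapping libraries (adjusted p = 0.68).

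In the MITF/TFE3 DKO, 646 of 12010 genes were called higher (5.38% of those tested) and 315 lower (2.62%) than in the TFE3 KO. Of these, 138 rose and 54 fell by at least 2 on the log2 scale, and the median of all genes was -0.002. The counts of each gene list below are to be read beside the 5.38% and 2.62% of all genes. The libraries of the lines did not overlap for 646 of the genes called higher and for 310 of those called lower, as for 46.7% of all 12010 genes. Stretches of neighbouring genes were shifted together in this comparison: of 9340 genes with a position in mm39 and a mean of at least 5 CPM, 2843 (30.4%) lay in a run of 100 neighbours with a median fold change at least 0.3 away from that of all genes. These held 206 of the 589 genes called among the 9340 (35.0%). All 521 such genes of chromosome 8 lay in shifted runs, with a median of 0.30, and 495 of 600 genes of chromosome 5, with a median of -0.30. The part of these stretches in the changes of single genes was not tested.

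The largest rise was in Mbp, which encodes myelin basic protein of the myelin sheath. Mbp had 965, 848 and 863 CPM across the MITF/TFE3 DKO libraries and 5.98, 7.83 and 5.37 CPM across those of the TFE3 KO, a change of 6.93 ± 0.17 (adjusted p = 1.1e-18). The libraries of the lines were far apart. In these bulk libraries, more cells with a transcript and more of it per cell cannot be told apart. Hspb7, a small heat shock protein of muscle, had 23.1, 24.2 and 20.7 CPM against 0.499, 0.1298 and 0.0933 CPM (4.26). Bcan, the brain proteoglycan brevican, had 37.1, 47.9 and 48.8 CPM against 1.15, 2.03 and 1.87 CPM (4.09). Each was low in all TFE3 KO libraries and higher in every library of the MITF/TFE3 DKO. The 12 largest rises also held Lmod1, an actin nucleator of smooth muscle (3.36), Lsp1, an actin-binding protein of leukocytes (3.95), and Asb2, a ubiquitin ligase subunit that targets filamins (3.71). Asb2 had 66.2, 65.2 and 66.6 CPM against 4.04, 4.07 and 4.25 CPM. Slit2, an axon guidance ligand, had 42.5, 50.2 and 53.1 CPM against 2.94, 3.03 and 3.22 CPM (3.60). Cp, the copper-carrying ferroxidase ceruloplasmin, had 143, 159 and 172 CPM against 13.7, 14.02 and 15.4 CPM (3.37), and the matrix protein Ccdc80 changed by 3.60. Prkg2, a cGMP-dependent kinase, had 252, 218 and 221 CPM against 16.01, 19.7 and 16.01 CPM (3.67), and the helix-loop-helix factor Atoh8 changed by 3.56. For the 11 genes named here the libraries of the lines did not overlap, and adjusted p-values were between 1.1e-18 and 2.9e-11.

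The largest fall among genes that the naming rule took was in Mt2 (chromosome 8, 94898819 to 94900207, plus strand of mm39), a metallothionein that binds zinc and copper. Mt2 had 46.01, 36.04 and 35.1 CPM across the MITF/TFE3 DKO libraries and 590.4, 1035 and 713 CPM across those of the TFE3 KO, a change of -4.25 ± 0.17 (adjusted p = 1.4e-14). The TFE3 KO libraries varied, and the lowest of them was still far above the highest of the MITF/TFE3 DKO. Nckap5l had 9.59, 16.02 and 12.3 CPM against 211, 151 and 169 CPM (-3.72), and Gjb2, the gap junction protein connexin 26, 9.34, 7.11 and 6.902 CPM against 69.9, 107 and 93.3 CPM (-3.36). The receptor Gpr37 changed by -3.77, the bicarbonate transporter Slc4a4 by -3.40 and Fxyd1, a regulator of the sodium pump, by -3.16. Gpr37 fell from 19.7, 15.3 and 17.2 CPM in the TFE3 KO to 0.332, 0.377 and 0.3200 CPM. The 12 largest falls also held Mgarp, a mitochondrial protein (-4.00), the pseudokinase Trib2 (-3.40), the sialyltransferase St6gal1 (-3.20), Car8 (-3.13) and Gsta4, a glutathione transferase for lipid aldehydes (-3.09). St6gal1 varied within the lines, with 43.5, 107 and 74.2 CPM for the TFE3 KO and 8.01, 4.62 and 8.14 CPM for the MITF/TFE3 DKO. Of the 24 largest changes, 7 lay in shifted stretches (Ccdc80, Slit2, Mt2, Nckap5l, Slc4a4, St6gal1 and Fxyd1).

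**Figure D1:**
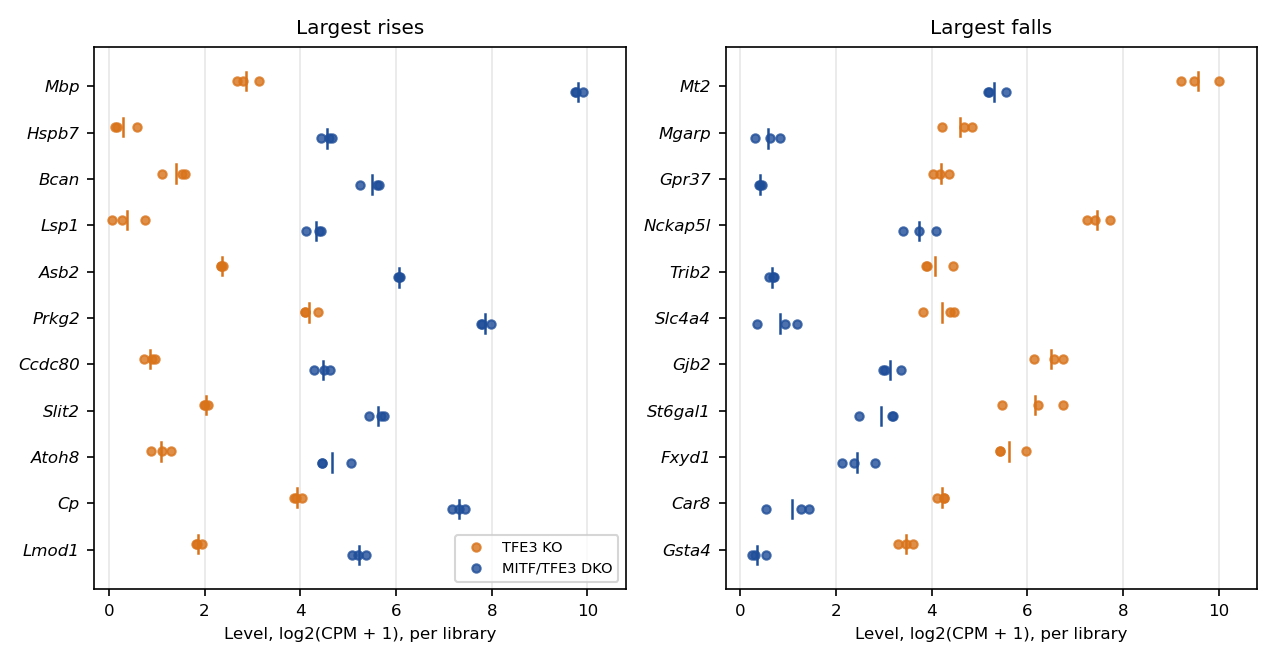
Level of 11 of the 12 genes with the largest rises and 11 of the 12 with the largest falls, as log2(CPM + 1) on the x axis, with 1 point per library (3 of the MITF/TFE3 DKO in blue, 3 of the TFE3 KO in orange) and a bar at the mean. For every gene the points of the lines are apart, and Mbp has the largest rise.

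Genes with at most 3 reads in each library of one line and at least 5 CPM in each library of the other numbered 10 that were on only in the MITF/TFE3 DKO and 3 that were on only in the TFE3 KO. Against the level of 3 reads, Lhfpl4, a membrane protein of inhibitory synapses, was at least 147-fold higher (18.8, 21.7 and 21.3 CPM), and Dbh, the enzyme that makes noradrenaline from dopamine, at least 91.4-fold higher (11.4, 12.8 and 14.1 CPM). Both had no read in any TFE3 KO library. Zfp985 (17.6, 18.4 and 19.7 CPM), the transporter Abca8a (14.2, 17.9 and 16.2 CPM), the mTORC1 inhibitor Ddit4l (12.9, 12.2 and 13.5 CPM) and Arhgap28 (11.04, 9.94 and 9.83 CPM) were also at or near no reads in the TFE3 KO. Runs of 50 bases near the 3′ end are shared with other measured genes by 13 of the named genes, whose levels are therefore uncertain. They are Zfp985 (with other zinc finger genes), Lhfpl4, Cp, Car8, Sp110, H2-D1, Map1lc3b, Mndal, Scd1, Trpm1, Tagln2, Pecam1 and Vwf. In the other direction, Nr5a1, a nuclear receptor of steroid-producing cells, was at 16.01, 11.2 and 9.01 CPM across the TFE3 KO libraries, with no read in the MITF/TFE3 DKO (at least 89.8-fold lower). The splicing factor Nova1 (10.6, 7.88 and 6.11 CPM, at least 61.1-fold lower) and Krba1 (6.33, 6.62 and 5.69 CPM, at least 46.3-fold lower) likewise had no read.

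None of the 10 pigment genes that the study names was called in either direction, with a median of -0.32 beside -0.002 for all genes. Dct, a melanin enzyme and the most abundant of them, had 20994, 23254 and 22847 CPM across the MITF/TFE3 DKO libraries and 19959.8, 21068 and 20049 CPM across those of the TFE3 KO, with overlapping libraries. Tyr, the rate-limiting enzyme of melanin synthesis, had 107, 81.6 and 115 CPM against 93.2, 116 and 145 CPM, also overlapping. Tyrp1 had 2995, 3196 and 3217 CPM against 2655, 3033 and 3078 CPM, and the melanocortin receptor Mc1r 294, 328 and 303 CPM against 295, 309 and 290.1 CPM. Another 4 genes had lower values without overlap, under the fold needed for a call, namely Slc45a2, a melanosomal transporter (301, 340.0 and 313 CPM against 572, 609.9 and 561 CPM, -0.87), Pmel, which forms the melanosome fibrils (-0.41), Mlana (-0.39) and Gpr143, a melanosomal receptor (-0.66). Trpm1 and Rab38 differed by -0.25 and -0.40 with overlapping libraries, and Rab38 ranged from 286 to 712 CPM within the MITF/TFE3 DKO alone.

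Among the 18 measured genes of melanin enzymes and melanosome proteins, 2 were called higher and 2 lower. Oca2, a melanosomal anion channel (chromosome 7, 55889191 to 56186280, plus strand of mm39), had 16.3, 17.8 and 19.1 CPM across the MITF/TFE3 DKO libraries and 1.05, 0.606 and 1.21 CPM across those of the TFE3 KO (3.27 ± 0.19, adjusted p = 3.5e-12), with all libraries apart. Its level in the parental cells was 3.87 ± 0.756 CPM (SD, n = 3). Oca2 was called lower in the MITF/TFEB DKO against the TFEB KO (-1.25) and in the TKO against the TFEB/TFE3 DKO (-2.18). Mfsd12, a cysteine importer of melanosomes and lysosomes, rose by 1.47. Cited1 had 6.89, 6.08 and 5.17 CPM against 24.5, 26.4 and 25.3 CPM (-1.91), and Bace2, the protease that cleaves PMEL, 90.9, 101 and 79.1 CPM against 242, 253 and 209 CPM (-1.37). Of 24 genes of melanosome biogenesis and transport, none was called higher and 2 were called lower, Sytl2 (-1.71), a RAB27 effector, and Lyst (-1.42), a regulator of lysosome size.

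Most genes of lysosomes and autophagy, the known targets of TFEB and TFE3, had small positive changes, under the fold needed for a call. Positive changes were seen in 34 of 50 lysosomal hydrolases, 29 of 39 V-ATPase and membrane genes and 29 of 44 autophagy genes. Over all 12010 genes the number was 5961. The medians of the 3 lists were 0.19, 0.18 and 0.26, beside -0.002 for all genes. Of 50 measured lysosomal hydrolases and their activators, 5 were called higher and 1 lower. These were 10% and 2%, beside 5.38% and 2.62% of all genes. Hgsnat, which acetylates heparan sulfate, had 245, 321 and 259.8 CPM against 96.6, 93.4 and 78.6 CPM (1.60). Lipa, the lysosomal acid lipase, had 131, 142 and 132 CPM against 61.2, 56.4 and 51.9 CPM (1.24), and the cathepsin Ctsh 29.7, 33.7 and 31.6 CPM against 12.7, 9.82 and 10.5 CPM (1.45). The libraries of the lines were apart for each of them. Idua, an iduronidase, changed by 1.27. None of 39 genes of the V-ATPase and the lysosomal membrane was called, with differences from -0.83 to 0.94. Of 44 autophagy genes 2 were called higher, Map1lc3b, which encodes LC3B (1.03), and the receptor gene Calcoco1 (1.21), and neither was called with a pseudocount of 5. Map1lc3b was also under the fold needed without TFE3 KO replicate 3 (0.89) and without MITF/TFE3 DKO replicate 2 (0.997). Of 38 genes of amino acid sensing and mTORC1 control, 2 were called higher, the mTORC1 inhibitors Ddit4 and Ddit4l. Ddit4 had 171, 204 and 177 CPM against 33.4, 30.6 and 41.3 CPM (2.36 ± 0.16, adjusted p = 4.6e-11), with the lines far apart. Sesn2 and Deptor, further inhibitors of mTORC1 that the study names, were under the fold needed (0.76 and 0.55), as was the fatty acid transporter Slc27a1 (0.75).

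Of 41 measured genes of the ATF4 stress response, which restores amino acid supply and protein folding, 6 were called higher and none lower. The share called higher was 14.6%, beside 5.38% of all genes. Ddit3, which encodes the stress factor CHOP, had 460.1, 487 and 426 CPM across the MITF/TFE3 DKO libraries and 136, 102 and 102 CPM across those of the TFE3 KO (2.02 ± 0.11, adjusted p = 9.2e-13). Its feedback inhibitor Trib3 had 123.1, 115 and 104 CPM against 36.9, 28.3 and 28.4 CPM (1.85), Atf5 246, 254 and 233 CPM against 84.8, 53.7 and 68.9 CPM (1.83) and Nupr1 93.05, 83.6 and 84.8 CPM against 25.6, 23.1 and 18.9 CPM (1.91). All 4 were higher in every library. The median of the list was 0.15, near that of all genes, so that the rise was in few members. For the MITF KO against the parental cells the median was 0.31. The MITF/TFEB DKO had -0.62 against the TFEB KO, and the TKO -0.77 against the TFEB/TFE3 DKO. Ddit3 was called lower in the TKO against the TFEB/TFE3 DKO (-1.68). Bbc3, a pro-death member of the BCL2 family also called PUMA, rose by 1.65 (31.6, 30.4 and 25.2 CPM against 11.6, 7.79 and 6.81 CPM), and 2 of 15 genes of that family were called higher and none lower. Of 27 ER chaperones and unfolded protein response genes, 1 was called, Creld2 (-1.03), which lost the call with a pseudocount of 5, without MITF/TFE3 DKO replicate 2 (-0.92) and without TFE3 KO replicate 2 (-0.99).

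Genes of DNA replication and division had lower values. All 54 measured genes of the S phase list had a negative fold change, with a median of -0.63. Of them 8 were called lower (14.8%, beside 2.62% of all genes). Mcm10, a factor that starts replication forks, had 21.8, 24.6 and 26.8 CPM against 101, 88.2 and 85.1 CPM (-1.86 ± 0.11, adjusted p = 2.9e-12). Mcm7, a subunit of the replicative helicase, had 148, 166 and 165 CPM against 421, 338 and 393 CPM (-1.26), and Brca1, of DNA repair, 22.2, 22.3 and 22.4 CPM against 53.8, 57.5 and 63.1 CPM (-1.34). The polymerase subunit Pold3 changed by -1.22. The summed level of the list was 4950 to 5128 CPM for the MITF/TFE3 DKO, 7965 to 8593 CPM for the TFE3 KO and 7242 to 7650 CPM in the parental cells. All 48 genes of the mitotic list also had negative values (median -0.53), and 1 was called, the proliferation marker Mki67 (75.4, 110.4 and 133 CPM against 237, 197 and 299 CPM, -1.21), which was under the fold needed without MITF/TFE3 DKO replicate 1 (-0.99). Of 21 G1 cyclins, kinases and inhibitors 3 were called higher. Cdkn1a, which encodes the inhibitor p21, had 1163, 1253 and 1233 CPM against 434, 347 and 462 CPM (1.56 ± 0.10, adjusted p = 2.6e-11), and Ccng1, a p53 target, 146, 156 and 162 CPM against 56.4, 70.98 and 59.8 CPM (1.30).

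**Figure D2:**
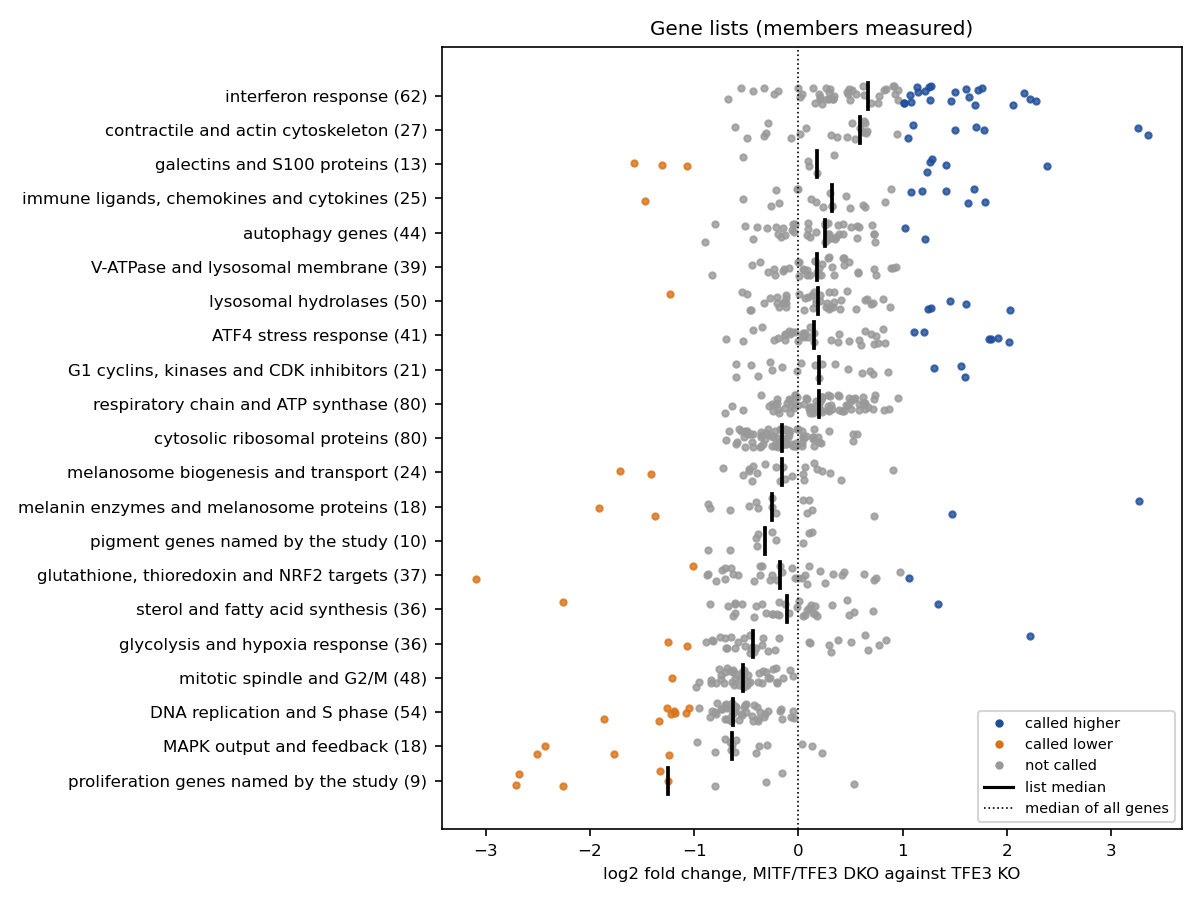
Log2 fold change of the MITF/TFE3 DKO against the TFE3 KO for the members of 21 gene lists, with 1 point per gene (blue called higher, orange called lower, grey not called), a bar at the median of the list and a dotted line at the median of all genes. The interferon list lies mostly to the right, and every member of the S phase and mitotic lists lies to the left.

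Of the 9 measured genes of the list of proliferation genes that the study names, 5 were called lower and none higher. The study discusses these targets of MITF with their levels in these libraries, so the list is not taken as independent evidence of its direction. Met, the receptor of hepatocyte growth factor (chromosome 6, 17463749 to 17573979, plus strand of mm39), had 34.3, 51.3 and 46.9 CPM across the MITF/TFE3 DKO libraries and 283, 287 and 285 CPM across those of the TFE3 KO (-2.68 ± 0.14, adjusted p = 4.7e-13). Ngfr, a neurotrophin receptor of neural crest cells, had 0.664, 0.612 and 0.731 CPM against 10.97, 9.09 and 9.66 CPM (-2.70). The receptor Kit had at most 2 reads in each MITF/TFE3 DKO library and 1.25, 1.298 and 2.33 CPM in the TFE3 KO, at least 12.1-fold lower, and was not called with a pseudocount of 5. Scd1, a fatty acid desaturase, had 7.68, 6.69 and 5.99 CPM against 38.6, 30.9 and 39.3 CPM (-2.26), and shares runs of bases near its 3′ end with Scd4. Hk2, the first enzyme of glycolysis, had 96.7, 125 and 110.0 CPM against 271, 243 and 276 CPM (-1.25). The other members were under the fold needed, with -0.80 for the WNT feedback gene Axin2, -0.31 for the NAD synthesis gene Nampt, -0.15 for Cdk2 and 0.54 for the mitochondrial coactivator Ppargc1a.

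In metabolism, few genes were called, in both directions. The lists below with any call had 2.703% to 3.03% of genes called higher and 2.778% to 5.556% called lower. These stand beside 5.38% and 2.62% of all genes, and each share rests on 1 or 2 genes. Of 36 genes of glycolysis and hypoxia 1 was called higher and 2 lower, with a median of -0.44. Ldha, lactate dehydrogenase, had 748, 697 and 676 CPM against 1515, 1593 and 1357 CPM (-1.07), while Pfkp, a phosphofructokinase, had 107, 129.7 and 106 CPM against 27.7, 24.1 and 19.8 CPM (2.22). Cpt1c rose by 1.22 in the list of fatty acid use, where 1 of 33 genes was called higher and 1 lower, and Acacb and Scd1 were the only calls among 36 genes of sterol and fatty acid synthesis. In the glutathione and NRF2 list of 37 genes, Hmox1, heme oxygenase, rose by 1.06, and Gsta4 and the malic enzyme Me1 (-1.01) were lower. Hmox1 was under the fold needed without MITF/TFE3 DKO replicate 1 (0.99) or TFE3 KO replicate 2 (0.94), and Me1 without any of 4 libraries (-0.997 to -0.914). None of 80 genes of the respiratory chain and ATP synthase, 78 mitochondrial and 80 cytosolic ribosomal proteins and 14 genes of PGC-1 and mitochondrial regulators was called, with medians between -0.16 and 0.20.

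Genes of lineage and growth signalling were called in both directions. Of 18 genes of MAPK output and feedback 4 were called lower and none higher (2 lower with a mean of at least 5 CPM). The 4 genes were 22.2% of the list, beside 2.62% of all genes called lower. They included Etv5 (1.87, 2.07 and 2.47 CPM against 19.9, 14.3 and 14.05 CPM, -2.43) and Etv1 (-1.77), ETS factors induced by ERK signalling. Of 21 E-box factors 3 were called lower and 1 higher. Bhlhe40 and Bhlhe41, repressors of the circadian clock, changed by -1.48 and -1.22, and Mxd4, an antagonist of MYC, had 18.02, 16.5 and 15.5 CPM against 2.24, 2.47 and 2.57 CPM (2.37). Of 16 WNT pathway genes 2 were called lower, among them Tcf7l1 (-1.20). Id3, an inhibitor of helix-loop-helix factors and a target of BMP, had 72.04, 40.9 and 61.8 CPM against 5.19, 11.3 and 8.03 CPM (2.71 ± 0.38), and Tgif1 rose by 1.24. Of 25 measured genes of the undifferentiated and invasive state, 2 were called higher and 2 lower, and Axl, a receptor of that state, had 21.2, 23.4 and 21.6 CPM against 17.8, 15.5 and 12.9 CPM, a difference of 0.50 that was under the fold needed. Of the 4 Schwann cell markers Mbp and Pmp22 were called higher. Pmp22, a protein of peripheral myelin, had 43.5, 53.6 and 47.1 CPM against 9.87, 8.27 and 7.33 CPM (2.37). The other 2 were not called. Of the 4 markers, 3 had a positive change, and the lowest change was -0.81.

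Contractile genes were called higher in 7 of 27 cases and lower in none, beside 5.38% of all genes called higher. Mylk, myosin light chain kinase, had 883, 1031 and 804 CPM across the MITF/TFE3 DKO libraries and 335, 247 and 255 CPM across those of the TFE3 KO (1.70 ± 0.13, adjusted p = 5.7e-10). Cnn2, a calponin, had 194, 147 and 167 CPM against 39.7, 55.2 and 51.2 CPM (1.78), and the myosin light chain Myl9 rose by 1.504, though it was called lower in the other 3 pairs of lines that differ in MITF (-1.36, -1.41 and -1.74). Of 54 genes of matrix, integrins and matrix proteases 4 were called higher and 3 lower (7.41% and 5.56%, beside 5.38% and 2.62% of all genes). The count higher ran from 1 with a pseudocount of 5 to 9 with edgeR. Itgb3, an integrin chain, had 5.15, 8.67 and 6.22 CPM against 28.6, 20.4 and 20.54 CPM (-1.66) and the protease Adam19 2.62, 2.26 and 2.51 CPM against 12.7, 13.6 and 13.3 CPM (-2.04), whereas Mmp11 rose by 1.27. Of the 13 S100 proteins and galectins 5 were called higher, all S100 genes, 3 lower, all galectins, and 5 neither way. The shares were 38.5% higher and 23.1% lower, beside 5.38% and 2.62% of all genes. S100b, a calcium-binding protein of neural crest derivatives, had 1292, 1476 and 1199 CPM against 284, 239 and 235 CPM (2.38 ± 0.12, adjusted p = 5.1e-13), S100a4 100.4, 91.2 and 81.96 CPM against 35.9, 32.3 and 32.3 CPM (1.41), and S100a13 rose by 1.28. Lgals3, galectin-3, had 99.8, 109 and 92.4 CPM against 349, 293 and 265 CPM (-1.57). S100b overlaps Dip2a on the other strand, and the counting is not stated to use strand. At the 3′ end, 12 of the named genes have a measured gene on the other strand. Besides S100b, they include Ccng1, Cp, Idua, Map1lc3b, Mcm7, Me1, Mfsd12, Pfkp, Pmel and Tgfb3.

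Of 62 measured interferon-type genes, which cells switch on in answer to interferons, 21 were called higher in the MITF/TFE3 DKO, none lower and 41 neither way, with a median of 0.66. The share called higher was 33.9%, beside 5.38% of all genes. Iigp1, an interferon-induced GTPase, had 110.1, 120.1 and 119.8 CPM across the MITF/TFE3 DKO libraries and 23.7, 21.3 and 24.8 CPM across those of the TFE3 KO (2.28 ± 0.14, adjusted p = 9.5e-12). Ifi44 had 96.6, 111 and 105 CPM against 20.2, 23.02 and 24.5 CPM (2.16 ± 0.11, adjusted p = 3.8e-13), the antiviral GTPase Mx2 38.3, 54.6 and 45.02 CPM against 9.92, 8.53 and 12.2 CPM (2.06) and the nuclear body protein Sp110 15.4, 16.02 and 15.8 CPM against 2.64, 2.16 and 2.99 CPM (2.22). The lines were apart for each. None of 14 genes of class I antigen presentation was called, with 3586, 4287 and 3576 CPM against 3277, 2643 and 2820.1 CPM for B2m, the light chain of class I molecules. Of 25 immune ligands, chemokines and cytokines 6 were called higher and 1 lower. The chemokine Ccl5 had 95.1, 100.4 and 90.5 CPM against 42.4, 40.2 and 41.2 CPM (1.19) and Tgfb3 45.8, 45.2 and 44.1 CPM against 13.6, 14.8 and 11.7 CPM (1.69). Nectin2, a ligand of natural killer and T cell receptors, was the one called lower, with 50.03, 64.5 and 55.7 CPM against 189.6, 138 and 151 CPM (-1.47). With a pseudocount of 5 the count called higher in this list was 2, and with a mean of at least 5 CPM it was 3. Of the leukocyte markers, Lyz2 (1.56 CPM against 0.132 CPM) and Laptm5 (3.30 CPM against 0.293 CPM) were also called higher, and the 4 measured summed to 5.85 to 7.31 CPM against 2.19 to 3.12 CPM. Only 2 of the 4 had a positive change, and the lowest change was -0.36. The part of these markers in the rise of immune genes was not tested.

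The median level of the 62 interferon-type genes was 53.8 to 56.7 CPM in the libraries of the MITF/TFE3 DKO and 30.0 to 31.8 CPM in the TFE3 KO, and the parental cells had 71.6 to 76.4 CPM. The TFE3 KO thus lay below the parental cells (median of the genes -0.88) and the MITF/TFE3 DKO near them (-0.09). The MITF KO had 1.89 to 2.24 CPM (-4.31) and the TKO 6.80 to 7.01 CPM (-2.98), whereas the MITF/TFEB DKO had 95.9 to 103 CPM (0.42). Of the 4 lines without MITF, 2 were therefore far below their counterpart with MITF and 2 above it. Ifi44 had no read in the MITF KO libraries and 153, 138 and 151 CPM in the parental cells.

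**Figure D3:**
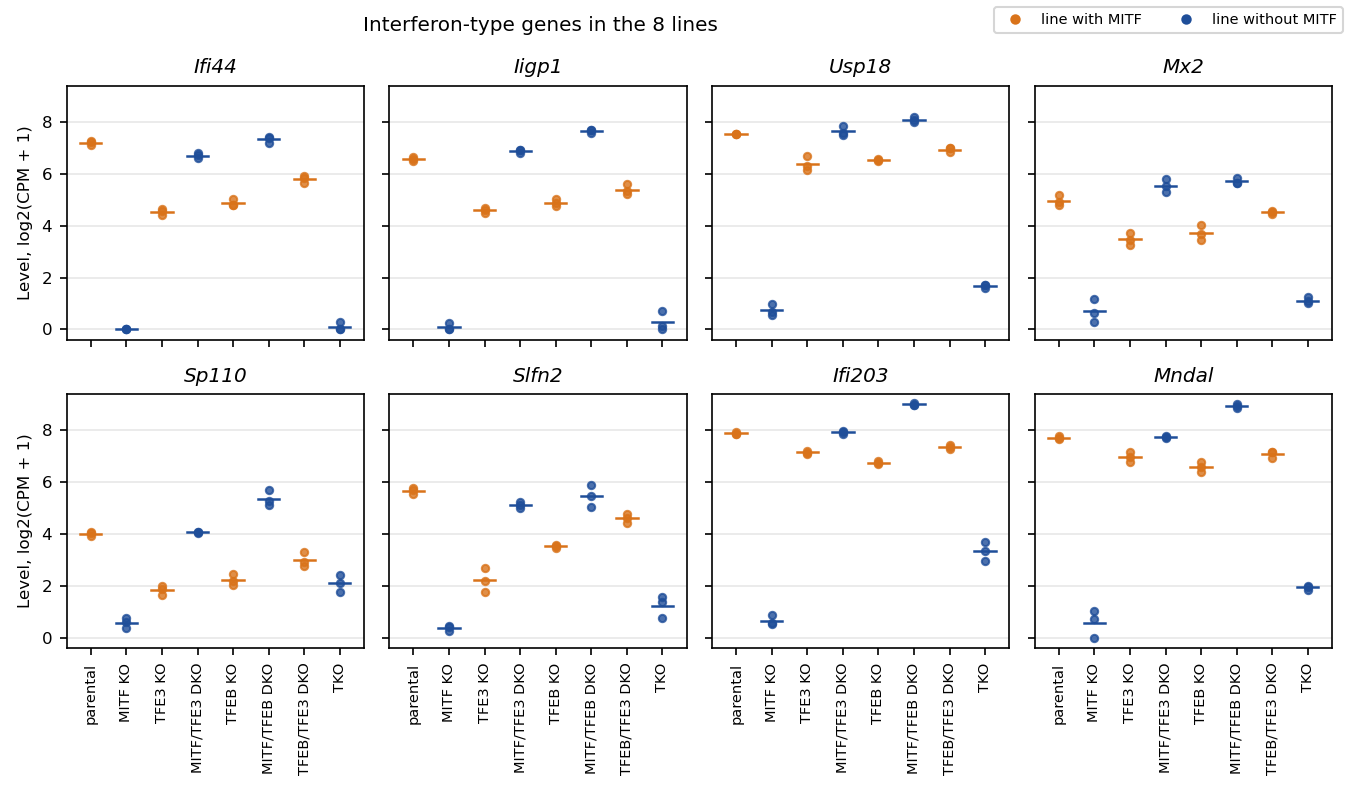
Level of 8 interferon-type genes as log2(CPM + 1) on the y axis in the 8 lines on the x axis, with 1 point per library and a bar at the mean (orange, lines with MITF, and blue, lines without). Slfn2 is not on the list of 62 genes. All 8 genes are lowest in the MITF KO, and all but Sp110 next lowest in the TKO. All 8 are higher in the MITF/TFE3 DKO than in the TFE3 KO, and likewise in the MITF/TFEB DKO than in the TFEB KO.

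The change on MITF loss was then compared without and with TFE3, as the fold change of the MITF/TFE3 DKO against the TFE3 KO minus that of the MITF KO against the parental cells, over 12 libraries with no library shared. This difference was called (at least 1 on the log2 scale, adjusted p under 0.05) as higher without TFE3 for 482 genes (4.01%) and lower for 249 (2.07%). With TFE3 present, 395 genes were called higher and 356 lower on MITF loss. Of these, 201 were called higher in both comparisons (31.1% of the 646 and 50.9% of the 395, beside 3.29% of all genes called higher on MITF loss with TFE3) and 100 lower in both (31.7% of the 315 and 28.1% of the 356, beside 2.96% of all genes). Another 44 genes were higher in the MITF/TFE3 DKO and lower in the MITF KO, and 20 of them were on the interferon list. No gene was lower in the MITF/TFE3 DKO and higher in the MITF KO, by the same limma calls.

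Interferon-type genes led the differences. Of the 62 measured, 58 had a difference called as higher without TFE3 and none as lower, and 56 were called lower on MITF loss with TFE3. Over all genes, 4.01% had a difference called as higher, and 2.96% were called lower on MITF loss with TFE3. Ifi44 changed by 2.16 without TFE3 and -7.21 with it, a difference of 9.37 ± 0.15 (adjusted p = 1.4e-22). With no read in the MITF KO, both of the last values depend on the pseudocount and are no bounds. The difference was 8.78 for Iigp1, 8.20 for Slfn2, 8.07 for Usp18, which removes ISG15, 8.01 for Ifi203 and 7.92 for Mndal. Slfn2 is not on the list of 62. Mean levels in the MITF KO were 0.063 CPM for Iigp1, 0.583 CPM for Ifi203 and 0.559 CPM for Mndal. The sizes of these differences, and that of Slfn2, therefore also depend on the pseudocount. Slfn2 had 45.6, 53.8 and 50.4 CPM in the parental cells and 0.188, 0.361 and 0.327 CPM after loss of MITF alone, and 3.54, 2.38 and 5.41 CPM without TFE3 and 33.5, 30.9 and 36.3 CPM without both. Mndal shares runs of bases near its 3′ end with Ifi203, so that reads may be divided between them. Class I antigen presentation followed, with 12 of 14 genes called for the difference, 2.37 for B2m and 3.43 for H2-D1, and of 25 immune ligands 8 were, with 4.11 for Ccl5.

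Other differences were in the named genes of the first comparison. Oca2 changed by 3.27 without TFE3 and by 0.62 with it (2.65 ± 0.27 for the difference). Cp changed by 3.37 and -0.06, Ccdc80 by 3.60 and -0.61, Lsp1 by 3.95 and -0.29, and Id3 by 2.71 and -0.92. Each of these rose without TFE3 and was not called with it. Mbp rose in both, by 3.60 with TFE3, and the difference was 3.33. Mean Mbp levels were 892 CPM for the MITF/TFE3 DKO and 850 CPM after loss of MITF alone. They were 6.395 CPM without TFE3 alone, 69.2 CPM for the parental cells and 92.96 CPM for the TFEB/TFE3 DKO. The Mbp difference thus lay mostly in the low TFE3 KO level. Lsp1 and Cp were also lower there (0.3204 and 14.38 CPM) than in parental cells (10.61 and 40.7 CPM). Both were higher in the MITF/TFE3 DKO (19.03 and 158 CPM) than after loss of MITF alone (8.504 and 38.9 CPM). Among the lowest differences of genes that the rule took were those of Tagln2 (-4.21), the kinase gene Pak3 (-3.28), the Y RNA Rny3 (-3.17), Dpysl3, of axon growth (-3.01) and Dipk1b (-2.93). Dpysl3 had 55.4, 57.8 and 56.4 CPM across the MITF/TFE3 DKO libraries and 68.7, 70.9 and 83.8 CPM across those of the TFE3 KO, and was called higher on MITF loss with TFE3 (2.63). Scd1 changed by -2.26 without TFE3 and -0.15 with it. Of the pigment genes that the study names, none was called for the difference, and of the proliferation genes 1 was called higher (Nampt, 1.196) and 3 lower, namely Met (-1.18), Ngfr (-1.14) and Scd1 (-2.11).

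**Figure D4:**
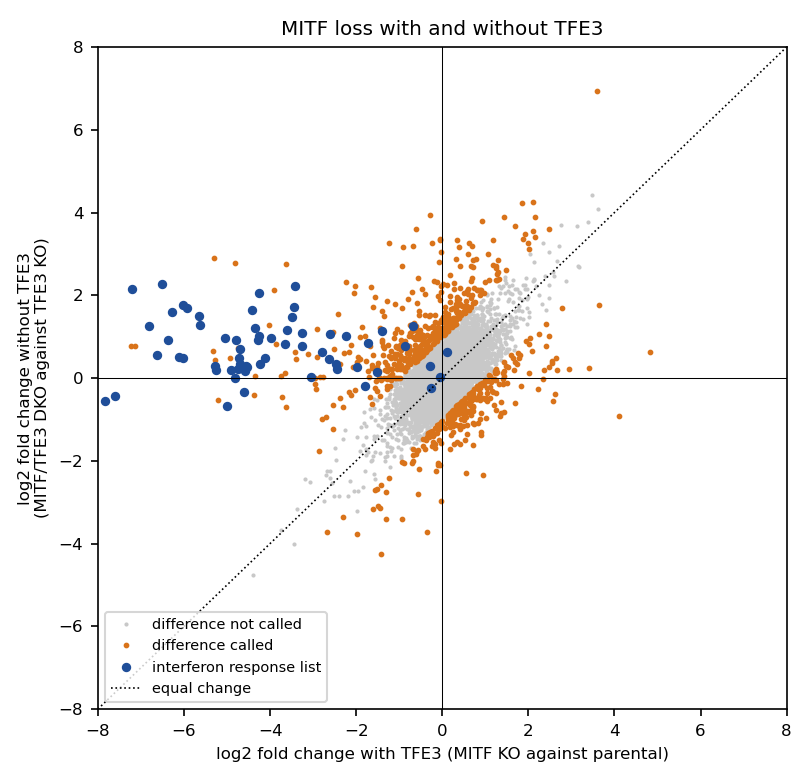
Log2 fold change on MITF loss without TFE3 (y axis) against that with TFE3 (x axis) for 12010 genes, with the interferon list in blue, other genes called for the difference in orange, the rest in grey and a dotted line of equal change. Most blue points lie far to the left of the line near or above a y value of 0, and the orange point at the top is Mbp.

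The same gene moved one way in all 4 pairs of lines that differ in MITF (without TFE3, with all members, without TFEB, and without both TFEB and TFE3) for 125 genes called higher (1.04%) and 78 called lower (0.649%). The 4 pairs share no library, but the lines without MITF are related clones. Asb2 rose by 3.71 here and by 2.77, 3.18 and 3.17 in the pairs with all members, without TFEB and without both. In the same order, Prkg2 rose by 3.67, 3.13, 4.54 and 4.78, Jph2, a junction protein of muscle membranes, by 3.20, 2.71, 3.80 and 3.59, and Mbp by 6.93, 3.60, 3.92 and 4.24. Lhfpl4 and Dbh were also called in all 4. Values of Nr5a1, which had no read in the MITF/TFE3 DKO, depend on the pseudocount. Among the falls, Mgarp changed by -4.00, -3.45, -4.90 and -5.96, Nr5a1 by -3.67, -3.75, -3.76 and -3.94, and Gjb2 by -3.36, -2.31, -3.34 and -4.78. Nckap5l, Hoxa11, a homeobox factor (2.37, 2.59 and 3.06 CPM against 21.2, 16.1 and 18.4 CPM here), and Slc40a1, the iron exporter ferroportin (2.699, 2.92 and 3.200 CPM against 16.9, 19.6 and 16.8 CPM here), were the other falls with the largest smallest change.

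**Figure D5:**
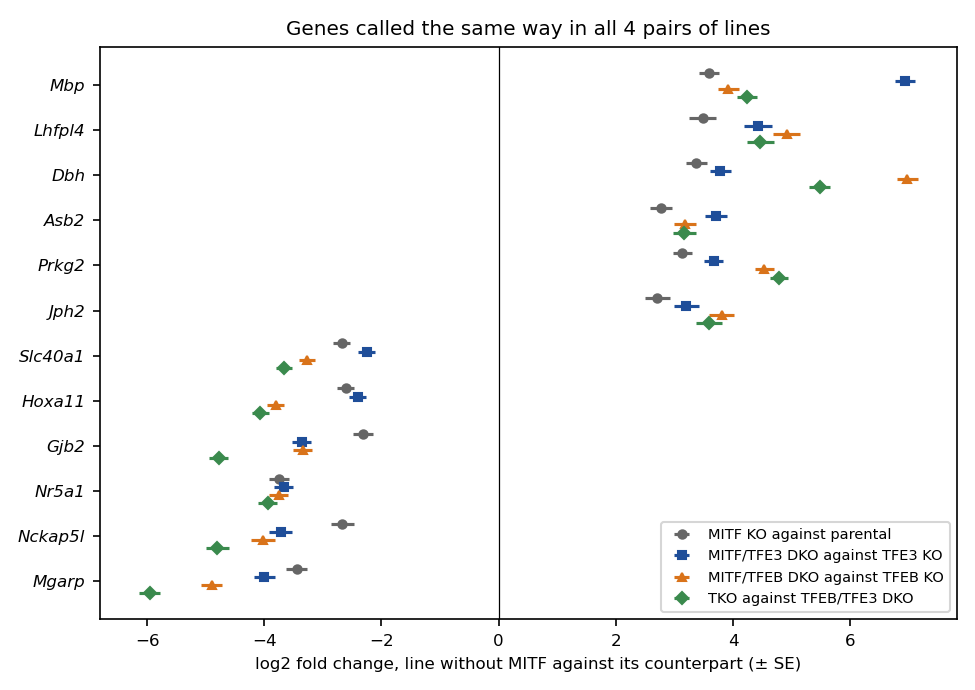
Log2 fold change (x axis) of the line without MITF against its counterpart for 12 genes called the same way in all 4 pairs, with the standard error of the limma fit as bars and 1 symbol per pair. Mbp rises more in the MITF/TFE3 DKO than in the other 3 pairs, and all 6 falling genes have their lowest plotted value in the TKO. For Nr5a1 and Hoxa11, with means of 0.0121 and 0.0803 CPM in the TKO, that order depends on the pseudocount.

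Of the genes called in the MITF/TFE3 DKO, 334 of 646 called higher (51.7%) were also called higher without TFEB, where 9.3% of all genes were, and 241 (37.3%) without both TFEB and TFE3, where 8.88% of all genes were. Of 315 called lower, 161 (51.1%) were called lower without TFEB, beside 5.35% of all genes, and 149 (47.3%) without both, beside 7.02%. A further 206 genes called higher and 113 called lower had no call in the other 3 pairs.

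Promoters of the largest changes, of the genes the study names and of those that moved in all 4 pairs were read for the motifs of this family. RefSeq windows (GRCm38.p6, mostly upstream of the start of transcription) were found for 36 of 53 such genes. The E-box CACGTG, a palindrome that reads the same on both strands, was in the windows of 5 of the 36 (13.9%), beside 11.97% of 9647 measured genes with a window. The longer motif TCACATGA or its reverse complement TCATGTGA was in 1 of 36 (2.78%), beside 0.995%. Neither motif contains the other. All 6 matches are shown, so that the context of the motif can be compared between genes called higher, called lower and not called. Each has 60 bases on the strand of the gene, 5′ to 3′, with the motif in capitals.
Asb2 (called higher): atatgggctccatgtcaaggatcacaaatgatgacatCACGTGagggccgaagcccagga
Atoh8 (called higher): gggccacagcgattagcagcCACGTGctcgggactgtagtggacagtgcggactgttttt
Met (called lower): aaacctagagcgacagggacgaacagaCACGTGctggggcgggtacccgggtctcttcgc
Hoxa11 (called lower): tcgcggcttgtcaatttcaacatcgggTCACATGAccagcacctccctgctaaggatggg
Trpm1 (not called): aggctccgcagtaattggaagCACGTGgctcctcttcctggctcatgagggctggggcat
Slc27a1 (not called): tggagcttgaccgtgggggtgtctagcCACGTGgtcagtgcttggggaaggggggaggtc
The Asb2 stretch is chr12:103356002-103356061 on the minus strand, with the motif 23 bases before the start of transcription. The Atoh8 stretch is chr6:72235768-72235827 on the minus strand, with the motif 230 bases before the start of transcription. The Met stretch is chr6:17463804-17463863 on the plus strand, with the motif 126 bases before the start of transcription. The Hoxa11 stretch is chr6:52245840-52245899 on the minus strand, with the motif 62 bases before the start of transcription. The Trpm1 stretch is chr7:64185209-64185268 on the plus strand, with the motif 229 bases before the start of transcription. The Slc27a1 stretch is chr8:71570365-71570424 on the plus strand, with the motif 202 bases before the start of transcription. Of the 6 genes, 2 were called higher, 2 lower and 2 neither way. A match is a description of these letters, not of binding.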

How the data were processed

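RNA was read from the 3′ ends of transcripts (QuantSeq Forward) in 8 B16-F10 lines with 3 libraries each, and the 6 libraries of the MITF/TFE3 DKO and the TFE3 KO were compared. The submitters' processing notes name Trim Galore 0.6.5, cutadapt 2.10, FastQC 0.11.9, STAR 2.7.8a, mm39 and edgeR. The counting tool, its annotation and its use of strand are not given in the sources used here. The deposited values are a signal, CPM (read counts relative to library size) scaled by the authors with TMM factors. Whole reads were recovered for 99.9958% of values (tolerance 0.05 reads), which gave 20574829 to 23814972 reads per library compared, and floors cover counting error only.

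Genes were tested with limma 3.58.1 in R 4.3.3, with a trend, on log2(CPM + 1) over all 24 libraries in 1 fit (16 residual degrees of freedom), with Benjamini-Hochberg adjustment over 12010 genes and no filter. Alternatives were edgeR 4.0.16 on the recovered reads, pseudocounts of 0.25 and 5, a mean of at least 5 CPM, another scaling, only the libraries compared, a replicate block, genes outside shifted stretches and leaving out each library. The steps were tested on simulated data.

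The genes, lists and tests were chosen with earlier results of these data known. Named genes are the family members, the 12 largest rises and falls (means of at least 10 CPM in the higher line, no overlap), up to 6 on or off genes each way (at most 3 reads against at least 5 CPM), up to 4 called members of each of 41 lists or, with none called, the 2 most abundant, the 6 highest and 6 lowest differences, genes named by the study, and 6 each way over all 4 pairs. Predicted and clone names were left out, and a few genes that the rule took are not reported here. Genes in counts of 5 or fewer outside this rule were named after their values were seen. Positions are those of GENCODE in mm39, and promoter windows those of RefSeq in GRCm38.p6.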

Additional observations from a re-analysis of the deposited data

Results flagged for a closer look

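The change on MITF loss differed without and with TFE3 for 58 of the 145 named genes, of which 56 are given here, by an interaction term in the limma fit across all genes (a difference of at least 1 on the log2 scale with an adjusted p under 0.05). Values are the log2 change without TFE3 minus that with TFE3. Genes were partly named for this difference, so their number is not a result.

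Among interferon-type genes, class I molecules and a chemokine, the differences were Ifi44 (9.37), Iigp1 (8.78), Slfn2 (8.20), Usp18 (8.07), Ifi203 (8.01), Mndal (7.92), Mx2 (6.32), Sp110 (5.66), Ccl5 (4.11), H2-D1 (3.43) and B2m (2.37). Slfn2 is not on the interferon list, and the sizes for Ifi44, Iigp1, Slfn2, Ifi203 and Mndal depend on the pseudocount. Other genes with a more positive change without TFE3 were Lsp1 (4.24), Ccdc80 (4.21), Id3 (3.63), Cp (3.43), Mbp (3.33), Ddit4l (2.87), Myl9 (2.86), Pecam1 (2.66), Oca2 (2.65), Zfp985 (2.37), Hspb7 (2.15) and Abca8a (1.74). Smaller positive differences were those of Axl (1.69), Arhgap28 (1.58), Lmod1 (1.48), Atoh8 (1.46), Cnn2 (1.41), Mfsd12 (1.36), Tgif1 (1.33), Mxd4 (1.28), Cdkn1a (1.22), Nampt (1.196), Ctsh (1.18) and Slit2 (1.12).

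Genes with a more negative change without TFE3 were Tagln2 (-4.21), Pak3 (-3.28), Rny3 (-3.17), Dpysl3 (-3.01), Dipk1b (-2.93), Mt2 (-2.83), Trib2 (-2.47), Col1a2 (-2.29), Scd1 (-2.11) and Slc4a4 (-2.09). Smaller negative differences were those of Gpr37 (-1.78), Car8 (-1.69), Gsta4 (-1.60), Fxyd1 (-1.56), Met (-1.18), Ngfr (-1.14), Adam19 (-1.10), Bace2 (-1.10), Mki67 (-1.06), Gjb2 (-1.05) and Nckap5l (-1.05). Tagln2 and Pecam1 had few reads in the MITF/TFE3 DKO and the TFE3 KO.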

How the results depend on the processing

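Counts of called genes moved with the handling of genes with few reads. On the recovered reads edgeR called 1005 genes higher and 471 lower in the MITF/TFE3 DKO, and 233 and 118 the same way in all 4 pairs. A pseudocount of 0.25 gave 215 higher in all 4 pairs. With a pseudocount of 5, 261 genes were higher and 148 lower, the difference without and with TFE3 was called for 245 and 91, and 49 and 45 moved in all 4 pairs. With a mean of at least 5 CPM, 398 and 204 genes were called, and 304 and 150 for the difference. Outside shifted stretches, which also leaves out genes under 5 CPM or with no position, the counts were 254 and 129, then 246 and 114, then 28 and 22. Leaving out each library in turn gave 632 to 678 higher and 300 to 349 lower, 472 to 511 and 221 to 274 for the difference, and 118 to 128 and 76 to 80 in all 4 pairs. No named gene reversed, and Pdgfrb, Tagln2 and Vwf passed the call with edgeR and with a pseudocount of 0.25. With a pseudocount of 5, Calcoco1, Creld2, Hmox1, Idua, Kit, Lyst, Map1lc3b, Me1, Mmp11, Myl9 and Tgif1 lost it.

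The replicate numbers did not pair the libraries: same-numbered libraries of the lines had deviations correlated at -0.50, -0.53 and 0.55. In the fit with a replicate block, 646 genes were called higher and 315 lower, and 482 and 248 for the difference.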
